A study of Homo sapiens with 7 samples.

Results

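RUNX2 binding and histone H3 lysine 27 acetylation (H3K27ac), a mark of active promoters and enhancers, were described at 8 genes of MHC class I antigen presentation: HLA-B, HLA-C, HLA-E, HLA-F, B2M, TAP1, TAP2 and NLRC5. The genes were taken by name, as 8 of the 19974 protein-coding genes of chromosomes 1 to 22 and X in the RefSeq table. An interval belonged to a gene when it lay wholly inside the gene's hg38 span plus 30 kb on each side, which is called its window here. The windows of TAP1 and TAP2 overlap, so the 8 genes make up 7 distinct loci, and an interval of both windows was counted once in totals.

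The study mapped genome-wide RUNX2 binding and H3K27ac by ChIP-seq in the T-cell acute lymphoblastic leukemia (T-ALL) lines KARPAS-45 and PER-117. Its 4 ChIP groups are KARPAS-45 with a RUNX2 antibody (D1H7), KARPAS-45 with an H3K27ac antibody (ab4729), and the same antibodies in PER-117, each with 1 library. The labels name no treatment and no genetic change made for the study. KARPAS-45, known as a KMT2A-rearranged line, grew in medium with 20% fetal bovine serum and PER-117 in medium with 10%, so line, serum and library cannot be told apart. Each group is 1 established line and 1 library, so no difference below has a replicate check or a test, and the values compare libraries.

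The authors' lists held 42911 RUNX2 intervals in KARPAS-45 against 21027 in PER-117, and 63265 H3K27ac regions covering 167 Mb in KARPAS-45 against 53263 covering 76.2 Mb in PER-117. The T-ALL identity was checked at gene ends, meaning a peak within 1 kb of either end of the gene span. All 6 T-cell genes of the marker list had H3K27ac there in both lines, while RUNX2 lay at 6 of them in KARPAS-45 and at 4 in PER-117. Of 4 B-cell genes, 2 had H3K27ac in both lines and none had RUNX2. None of 4 myeloid and 3 erythroid genes had either mark in either line. Over all protein-coding genes, 51.9% had H3K27ac at a gene end in both lines, which is near the B-cell result. RUNX2 was called for 48.3% of all genes with the KARPAS-45 list, against 32.5% with that of PER-117. The marker groups are small and were not tested against these shares.

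MHC class I molecules show peptides made inside the cell to CD8+ T cells and to natural killer cells. Proteasomes cut proteins into peptides, the TAP1/TAP2 transporter carries these into the endoplasmic reticulum, and a heavy chain paired with beta-2-microglobulin takes them to the cell surface. NLRC5 is a transcriptional coactivator of class I genes that acts at their promoters through the X and Y box factors, and interferons raise many genes of the pathway through factors such as the IRF family. RUNX2 belongs to the Runt-domain family of transcription factors, and TGTGGT is a form of their core DNA motif.

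The 250 bases before the start of 5 of the genes are shown because RUNX2 peaks lay on the TAP1 and TAP2 promoters in KARPAS-45 only, and because HLA-B and HLA-C share most of their promoter letters while their peaks differed between the lines. Promoter sequences are from RefSeq (GRCh38.p14), 5′ to 3′ along the transcribed strand, and capitals mark exact matches on either strand to the interferon response element GAAA, any 2 bases, GAAA, the Y box ATTGG or the X2 box form TGACGC. HLA-C, TAP2, TAP1 and HLA-B lie on the minus strand and B2M on the plus strand.
HLA-C, chr6:31272093-31272342: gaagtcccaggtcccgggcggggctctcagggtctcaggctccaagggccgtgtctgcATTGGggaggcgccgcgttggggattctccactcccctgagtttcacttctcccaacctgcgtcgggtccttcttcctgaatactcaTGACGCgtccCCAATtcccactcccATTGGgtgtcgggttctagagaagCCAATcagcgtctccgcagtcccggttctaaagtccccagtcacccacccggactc
HLA-B, chr6:31357180-31357429: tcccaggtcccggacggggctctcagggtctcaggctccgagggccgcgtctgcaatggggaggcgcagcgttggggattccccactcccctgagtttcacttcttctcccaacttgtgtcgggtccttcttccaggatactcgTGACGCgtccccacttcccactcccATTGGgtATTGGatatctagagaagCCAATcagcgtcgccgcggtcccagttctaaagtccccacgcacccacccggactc
B2M, chr15:44711267-44711516: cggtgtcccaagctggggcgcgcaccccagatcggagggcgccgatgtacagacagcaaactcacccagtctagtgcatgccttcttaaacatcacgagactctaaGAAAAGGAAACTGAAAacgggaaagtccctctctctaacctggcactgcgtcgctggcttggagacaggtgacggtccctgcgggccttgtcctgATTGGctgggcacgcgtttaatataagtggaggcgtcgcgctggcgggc
TAP1, chr6:32853705-32853954: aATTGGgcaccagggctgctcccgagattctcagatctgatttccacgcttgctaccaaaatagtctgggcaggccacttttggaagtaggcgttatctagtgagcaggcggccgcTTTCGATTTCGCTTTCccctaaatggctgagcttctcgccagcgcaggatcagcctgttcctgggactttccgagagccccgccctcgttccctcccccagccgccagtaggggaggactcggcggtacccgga
TAP2, chr6:32838740-32838989: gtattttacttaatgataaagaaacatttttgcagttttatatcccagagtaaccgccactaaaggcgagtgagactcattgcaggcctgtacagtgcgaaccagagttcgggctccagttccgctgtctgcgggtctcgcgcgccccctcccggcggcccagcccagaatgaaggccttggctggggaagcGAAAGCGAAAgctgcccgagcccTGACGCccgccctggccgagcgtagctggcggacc

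The motif search covered 300 bases per promoter, 250 before to 50 after the start, on both strands. The table held 7 promoters for 6 of the 8 genes, TAP1 having 2; HLA-E and NLRC5 had no entry. The interferon response element was matched at 4 genes, HLA-F, B2M, TAP1 and TAP2, against 3.57% of all 35116 promoters in the table. In B2M 2 overlapping matches began at -144 and -138 from the start, and in TAP1 the 2 overlapping matches read on the other strand began at -134 and -128. The Y box was matched at HLA-B, HLA-C, HLA-F, B2M and TAP1, against 34.6% of all promoters, and TGACGC at HLA-B, HLA-C and TAP2, against 9.14%. The RUNX core form TGTGGT was matched in 0 of the 7 promoters, against 13.1% of all, and its extended form TGTGGTTT also in 0, against 1.53%. Other forms of the RUNX core were not searched. The other motifs searched were GGGA, any 4 bases, CC (kappaB), matched in 4 of the 7 promoters and 25.6% of all, CANNTG (E box), in 1 and 68.7%, TTCNNNGAA (GAS), in 1 and 7.66%, and TGACGTCA, in 0 and 1.85%. These are letter matches only, and some overlap each other.

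In all windows together, 22 RUNX2 peaks were found in KARPAS-45, against 11 in PER-117. A RUNX2 peak lay in the window of all 8 genes in KARPAS-45, beside 81.1% of all protein-coding genes, and of 6 genes in PER-117 (all but HLA-B and HLA-C), beside 66.4%. The median per gene was 4 peaks in KARPAS-45 against 1.5 in PER-117, beside 3 and 1 over all protein-coding genes. KARPAS-45 also had the longer list: when it was shortened, highest fold first, to the length of the PER-117 list, 10 peaks were left in KARPAS-45 against 11 in PER-117. The lowest fold kept was 6.43, and KARPAS-45 peaks of fold 6.4 at B2M and 6.37 at HLA-E fell just under it.

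Fold enrichment is the authors' value for each peak, a ratio of signal over background, and is used here to rank peaks within a list. It ran from 3.18 to 96.5 in KARPAS-45 with a median of 6.38 (6.36 over the whole list), and from 4.32 to 21.3 in PER-117 with a median of 9.09 (5.72 over the whole list). Of the 22 peaks in KARPAS-45, 8 overlapped a PER-117 peak, and of the 11 in PER-117, 9 overlapped a KARPAS-45 peak. Over the whole lists 31.2% of KARPAS-45 peaks and 63.6% of PER-117 peaks did so. H3K27ac of the same line covered the summit of 16 of 22 peaks in KARPAS-45 and of 8 of 11 in PER-117, beside 65.2% and 75.6% of the whole lists. With only H3K27ac regions of −log10 q of 2 or more, the summits covered were 10 of 22 in KARPAS-45 and still 8 of 11 in PER-117. The unacetylated peaks (6 in the KARPAS-45 list, 3 in the PER-117 list) were all in the chromosome 6 windows and had no H3K27ac in either line.

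**Figure D1:**
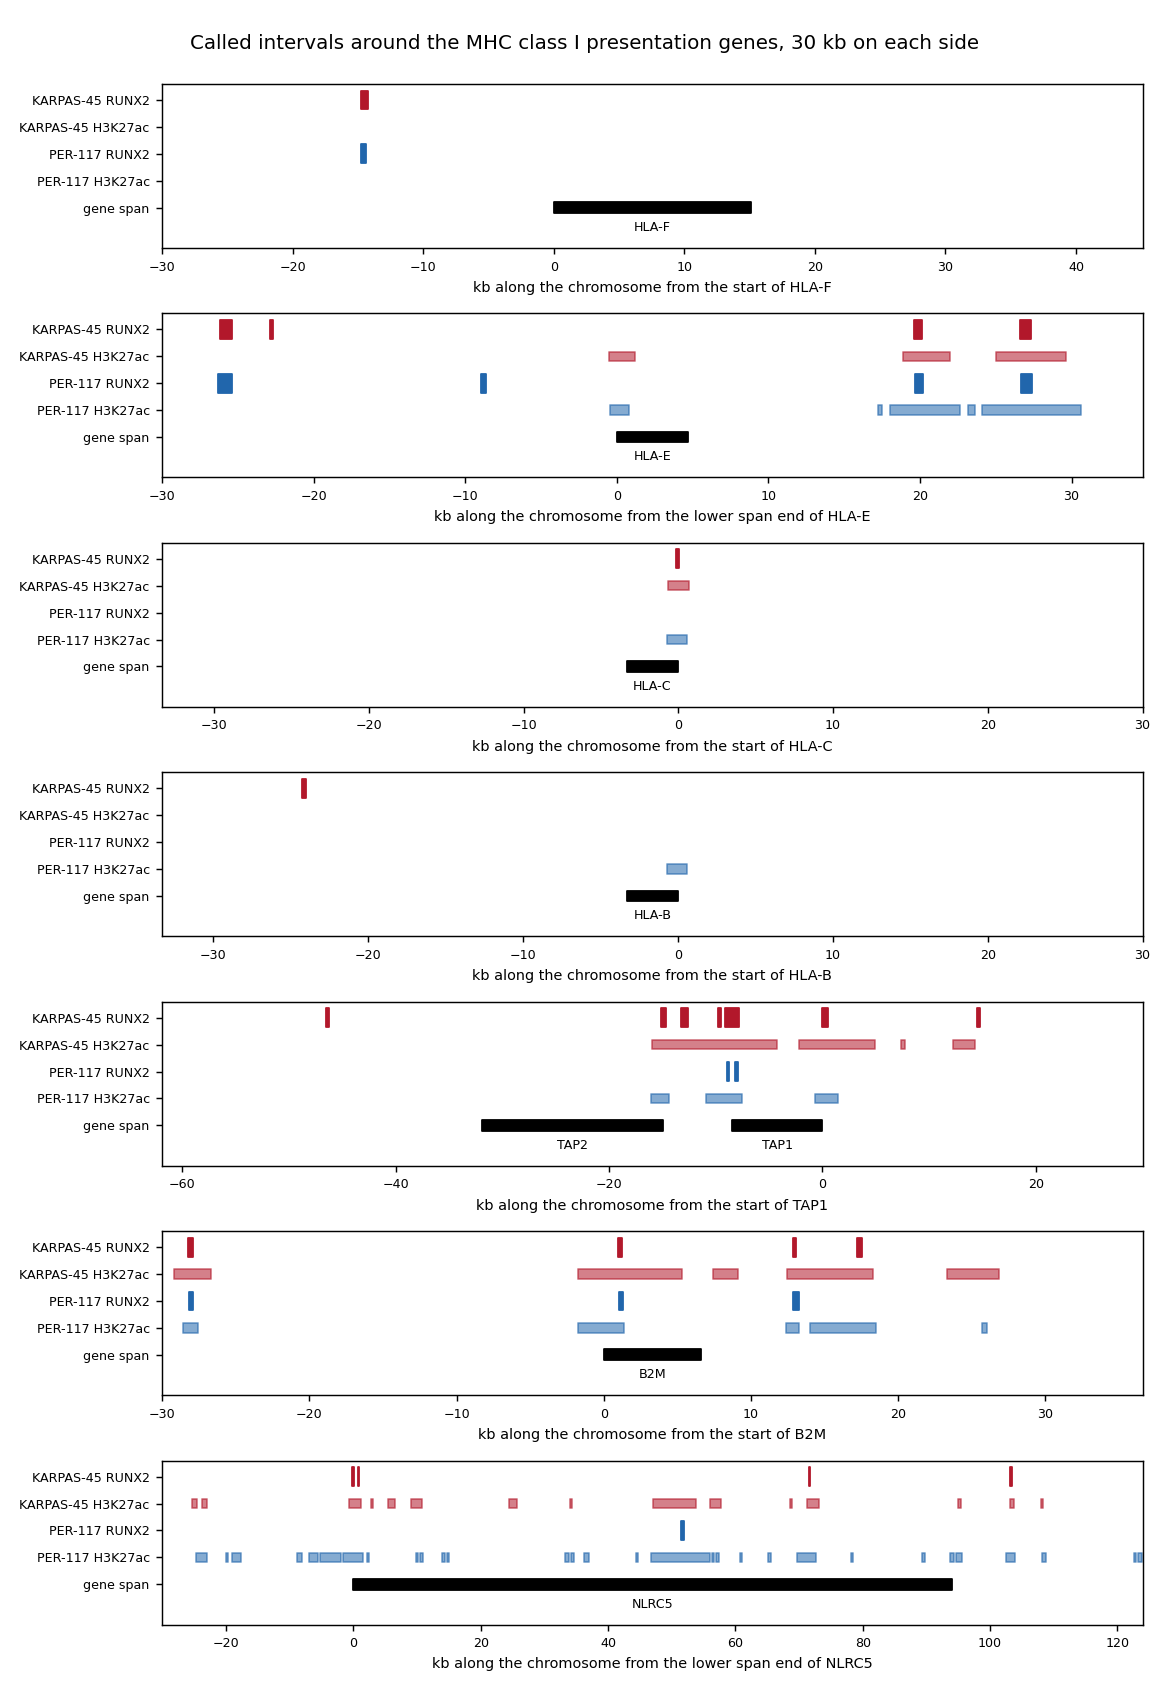
Map of the 7 loci, each on an axis in kb along the chromosome from the gene start (lower span end for HLA-E and NLRC5). RUNX2 peaks and H3K27ac regions are drawn at their width with a thin outline, KARPAS-45 above PER-117, over the gene spans in black. KARPAS-45 has 22 RUNX2 peaks and PER-117 has 11, and the HLA-F window has no H3K27ac region in either line.

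The classical heavy chains HLA-B and HLA-C present peptides to CD8+ T cells. At HLA-C (chr6:31268749-31272092) the 1 RUNX2 peak of the window in KARPAS-45 had a fold of 4.27, and PER-117 had none. Its summit lay 27 bp inside the gene from the start, and the peak overlapped 107 of the 300 promoter bases. H3K27ac covered the HLA-C promoter in both lines, with a region of 1406 bp and fold 1.84 in KARPAS-45 and a region of 1302 bp and fold 8.88 in PER-117. The HLA-C promoter was thus acetylated in both libraries and carried a RUNX2 peak in the KARPAS-45 library, low in its list at 35448 of 42911.

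HLA-B (chr6:31353875-31357179) had 1 RUNX2 peak in its window in KARPAS-45, with a fold of 10.7 and a summit 20837 bp from the gene end, outside H3K27ac of either line, and PER-117 had none. No H3K27ac region lay in the HLA-B window in KARPAS-45, while PER-117 had 1 of 1331 bp and fold 5.57 over the promoter. HLA-B was the only member with H3K27ac at a gene end in PER-117 alone, a call made for 3.63% of all protein-coding genes. The 300-base promoters of HLA-B and HLA-C were identical at 88.5% of aligned positions, HLA-B and HLA-F at 79.7%, and HLA-C and HLA-F at 78.9%. HLA genes also vary between people, and the effect of such copies and alleles on read placement was not tested.

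HLA-E, a nonclassical heavy chain read by natural killer receptors, had the largest RUNX2 peak of any member window in each line. In KARPAS-45 that peak (chr6:30463327-30464096) had a fold of 96.5 and ranked 1 of 42911, and in PER-117 the peak at the same site had a fold of 21.3 and ranked 552 of 21027. The summits were 44 bp apart. Their positions from the lower end of HLA-E were -25762 bp in KARPAS-45 and -25718 bp in PER-117, and the nearest protein-coding gene end, that of LOC105375012, was 144 bp away in KARPAS-45 against 188 bp in PER-117. No H3K27ac region of either line covered the summit, so the strongest RUNX2 peak of the KARPAS-45 list was unacetylated.

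The HLA-E window also held a pair of RUNX2 sites above the gene that were acetylated in both lines. The first, 19852 bp above the lower gene end in KARPAS-45, had a fold of 25.9 there, and its PER-117 counterpart at 19873 bp had 12.5. The next, inside the noncoding gene LINC02569, lay at 27161 bp with a fold of 6.37 in KARPAS-45 and at 27091 bp with a fold of 12.3 in PER-117. The H3K27ac regions over these sites had a −log10 q of 1.77 and 2.1 in KARPAS-45 and of 13.3 and 19.8 in PER-117, so with 2 or more the first site was acetylated in PER-117 alone. KARPAS-45 alone had a peak of fold 5.23, and PER-117 alone had a peak of fold 11.9 at 8806 bp below the gene, both outside H3K27ac. HLA-E itself (chr6:30489509-30494194) held no RUNX2 peak in either line. Its lower end was acetylated in both, with a region of fold 1.17 in KARPAS-45 against 6.24 in PER-117.

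HLA-F, another nonclassical heavy chain, had RUNX2 without acetylation. The HLA-F window (gene chr6:29723434-29738532) held 1 RUNX2 peak in each line at the same site, with a fold of 33.3 and rank 784 in KARPAS-45 and a fold of 9.63 and rank 4133 in PER-117. The summits, 50 bp apart, lay before the gene start, by 14520 bp in KARPAS-45 and by 14570 bp in PER-117. No H3K27ac region lay in the window in either line, the nearest being 40161 bp from a gene end in KARPAS-45 against 73167 bp in PER-117.

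**Figure D2:**
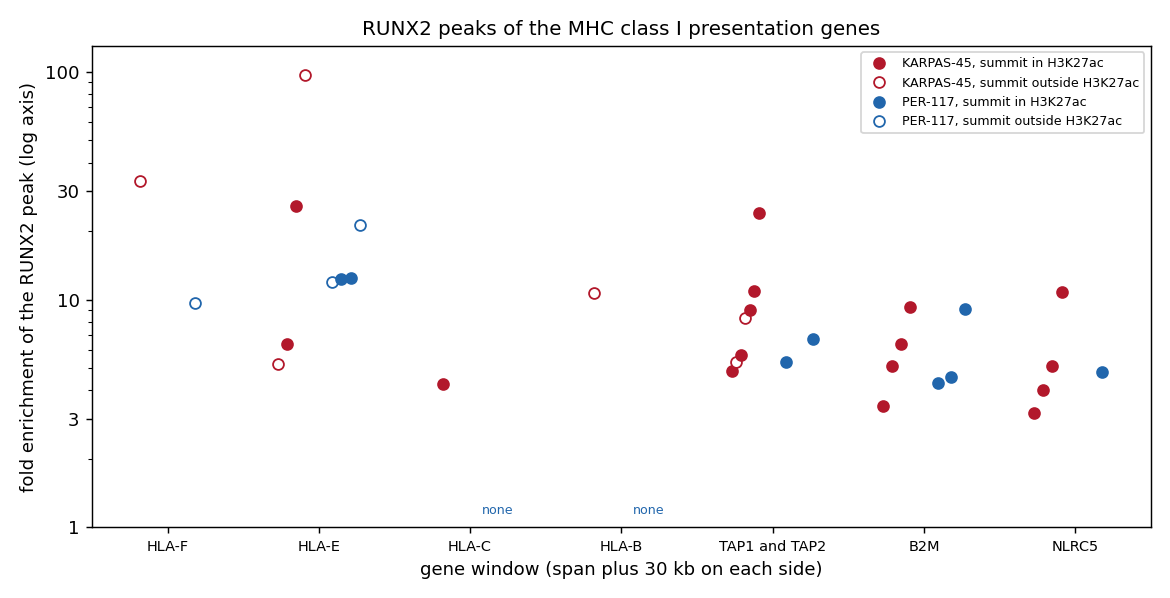
Fold enrichment (log axis, the authors' ratio) of each RUNX2 peak by locus, KARPAS-45 left of PER-117 at each locus. Filled points have an acetylated summit and open points do not, and points of a locus are spread sideways by fold. The HLA-E window holds the highest point of each line, 96.5 in KARPAS-45, against 21.3 in PER-117, and both are open.

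B2M encodes beta-2-microglobulin, the light chain of every class I molecule. The B2M window (gene chr15:44711517-44718145) held RUNX2 peaks of fold 9.32, 6.4, 5.11 and 3.4 in KARPAS-45 and of fold 4.32, 4.57 and 9.09 in PER-117, in order along the chromosome. All 3 PER-117 peaks overlapped the first 3 of KARPAS-45, with summits 10, 22 and 13 bp apart, and all peaks of both lines were acetylated. The strongest B2M peak of KARPAS-45, of fold 9.32, lay inside the neighbouring gene PATL2, and that of PER-117, of fold 9.09, lay 6358 bp past the B2M gene end. The 5.11 and 9.09 pair ranked 29055 of 42911 in KARPAS-45 and 4616 of 21027 in PER-117, while the 9.32 and 4.32 pair ranked 12410 in KARPAS-45 against 15674 in PER-117. The order of strength among the shared sites therefore differed between the libraries. H3K27ac covered 31.1% of the window in KARPAS-45, against 14.7% in PER-117, and the region over the B2M start was 7067 bp wide with fold 1.79 in KARPAS-45 and 3097 bp with fold 9.07 in PER-117.

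The B2M peak inside the gene sits at the edge of the gene-end rule. It began 1000 bp from the gene start in KARPAS-45, which the rule takes in, and 1032 bp from it in PER-117, which the rule leaves out. Its summit lay 1115 bp past the start in KARPAS-45 and 1137 bp past it in PER-117, so the B2M call in KARPAS-45 alone rests on the limit and not on a different site.

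TAP1 and TAP2 form the peptide transporter and lie beside the immunoproteasome genes PSMB8 and PSMB9. Their joint windows held 7 RUNX2 peaks in KARPAS-45, against 2 in PER-117. Along the chromosome the KARPAS-45 peaks had folds of 8.31, 4.84, 23.9, 5.7, 10.9, 8.98 and 5.35, and the PER-117 peaks had folds of 6.75 and 5.31. Both PER-117 peaks lay within the KARPAS-45 peak of fold 10.9, which was 1287 bp wide with 3 deposited summits, and the summit of the 5.31 peak was 1 bp from its highest. This site spans the lower end of TAP1 (gene chr6:32845209-32853704), the antisense gene PSMB8-AS1 and the upper of the 2 PSMB8 promoters in the table. It overlapped 300 of the 300 bases of that promoter in KARPAS-45 and 200 of them in PER-117. The lower PSMB8 promoter had 190 bases under the KARPAS-45 peak of fold 5.7 and none under a PER-117 peak.

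The other TAP peaks were in the KARPAS-45 list only. The strongest, of fold 23.9, had its summit 36 bp from the lower end of PSMB8 and was the only RUNX2 peak of any member window that was acetylated in its own line and not in the other. That call rests on a KARPAS-45 region of fold 1.48 and −log10 q 1.95 and ends when 2 or more is asked for. The peak of fold 4.84 covered all 300 bases of the TAP2 promoter (gene chr6:32821831-32838739), with its summit 193 bp before the start. The peak of fold 8.98 had its summit between TAP1 and PSMB9, which are transcribed in opposite directions, and covered 251 bases of the TAP1 promoter and all 300 of the PSMB9 promoter. The TAP1 and TAP2 promoters printed above were thus under RUNX2 peaks in KARPAS-45 and under none in PER-117.

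H3K27ac lay on the TAP1 and TAP2 promoters in both lines. KARPAS-45 had 4 regions with folds from 1.2 to 1.48, of which the widest, 11.7 kb, ran from the TAP2 start across PSMB8 into TAP1, and PER-117 had 3 regions with folds from 5.49 to 9.53. In all, 21.3 kb were covered in KARPAS-45 against 7.25 kb in PER-117. The 4 KARPAS-45 regions all had a −log10 q under 2, so with 2 or more none was left there, against all 3 regions and 7.25 kb in PER-117. The wider cover in KARPAS-45 at this locus thus rests on regions near the lower limit of its list.

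NLRC5, the class I transactivator, spans 93964 bp (chr16:56989557-57083520). In KARPAS-45 its window held RUNX2 peaks of fold 3.18, 5.13, 4.0 and 10.8, and in PER-117 it held 1 of fold 4.81. The peaks of fold 3.18 and 5.13 flanked the lower end of the gene, with summits 52 bp outside and 817 bp inside it, and that of fold 10.8 lay 205 bp inside CPNE2, the next gene. The PER-117 peak lay 51654 bp inside NLRC5. No RUNX2 site was shared at NLRC5, although each summit was inside H3K27ac of both lines.

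The NLRC5 window held 15 H3K27ac regions covering 20.0 kb in KARPAS-45 and 30 regions covering 34.7 kb in PER-117. The region over the lower gene end had a fold of 19.3 and ranked 94 of 63265 in KARPAS-45, and a fold of 6.39 and rank 6789 of 53263 in PER-117. The widest was 6.8 kb in KARPAS-45, against 9.26 kb in PER-117, and the sites overlapped inside the gene, where the PER-117 RUNX2 peak also lay.

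Across the windows, the 28 H3K27ac regions of KARPAS-45 covered 72.9 kb and the 45 of PER-117 covered 67.6 kb. This order turned with −log10 q of 2 or more, which left 46.8 kb in KARPAS-45 against 61.4 kb in PER-117, and with the KARPAS-45 list shortened, widest regions first, until both lists covered equal lengths, which left it 32.7 kb. The shortening kept 5379 of 63265 KARPAS-45 regions. It went by width and not by fold, so narrow regions of high fold were lost, such as that of fold 19.3 at the NLRC5 gene end. The 6 genes other than HLA-B and HLA-F in KARPAS-45, and the 7 other than HLA-F in PER-117, had a region in the window, beside 79.3% and 76.4% of all protein-coding genes. The median covered share of a window was 13.8% in KARPAS-45 against 10.0% in PER-117, beside 6.95% and 3.29% over all protein-coding genes. Regions overlapped one of the other line in 21 of 28 cases in KARPAS-45 and 24 of 45 in PER-117, beside 35.3% and 58.2% of the whole lists.

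The folds were ordered differently by locus in each line. In the chromosome 6 windows they ran from 1.17 to 1.84 in KARPAS-45, with 0 of 8 regions in the upper 50% of the list, and from 2.5 to 9.53 in PER-117, with 8 of 10. In the B2M window 1 of 5 regions in KARPAS-45 and 4 of 5 in PER-117 were in the upper 50%. In the NLRC5 window the order was the other way, with 14 of 15 in KARPAS-45 and 12 of 30 in PER-117. Within 500 kb of the genes, the median fold in KARPAS-45 was 1.54 at TAP1 and TAP2, 1.7 at HLA-C, 1.81 at HLA-E, 2.14 at HLA-B, 2.31 at B2M, 3.78 at NLRC5 and 3.85 at HLA-F. In PER-117 it was 5.98 at TAP1, 6.11 at TAP2, 3.79 at HLA-C, 3.98 at HLA-E, 3.69 at HLA-B, 3.29 at B2M, 3.01 at NLRC5 and 3.11 at HLA-F. The surroundings of TAP1 and NLRC5 thus stood in opposite order in the lines, while those of HLA-F, on chromosome 6, stood high in KARPAS-45. The part of these surroundings in the members' values was not tested.

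**Figure D3:**
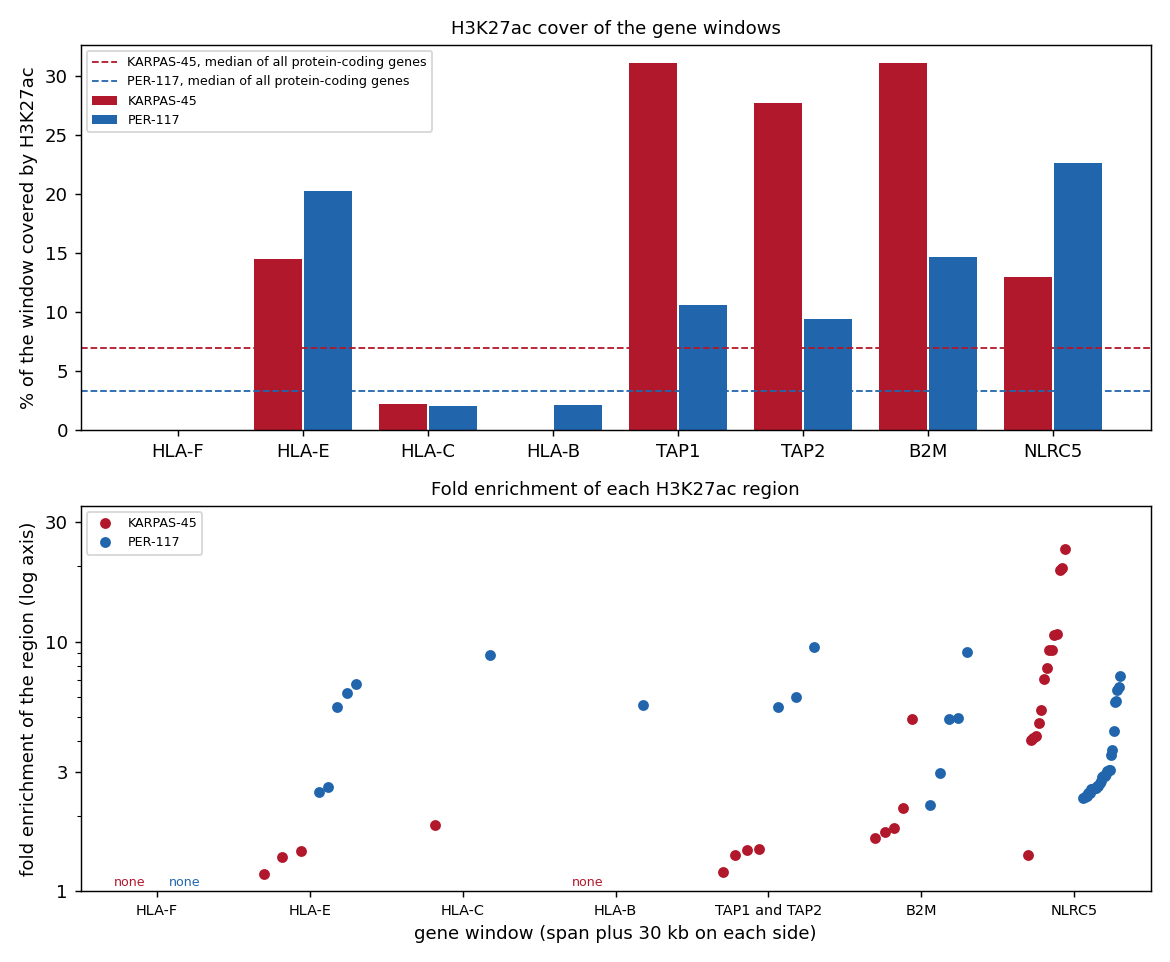
Upper panel: percent of each gene's window covered by H3K27ac, KARPAS-45 left of PER-117, with dashed lines at the median of all protein-coding genes (6.95% in KARPAS-45, 3.29% in PER-117); lower panel: fold enrichment of each H3K27ac region by locus (log axis, the authors' ratio). The KARPAS-45 regions of the chromosome 6 windows sit between 1.17 and 1.84, below that whole list's median of 2.38, and those of NLRC5 reach 23.6.

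At gene ends RUNX2 was called for 5 of the 8 members in KARPAS-45 (HLA-C, B2M, TAP1, TAP2 and NLRC5) and for TAP1 in PER-117. Over all protein-coding genes 48.3% were called in KARPAS-45, against 32.5% in PER-117. TAP1 was thus the 1 member called in both lines, beside 29.2% of all genes, 4 were called in KARPAS-45 only, beside 19.2%, and none in PER-117 only, beside 3.35%. The PER-117 peaks at TAP1 lay at its lower end, away from its start. B2M is 1 of the 4, and its call in KARPAS-45 alone rests on the limit of 1 kb, since both lines had a peak at that site. HLA-B, HLA-E and HLA-F had no RUNX2 at a gene end in either line. The count in KARPAS-45 rests on its weaker peaks: with −log10 q of 10 or more it was 3 (B2M, TAP1 and TAP2), and with the list shortened to the length of the PER-117 list it was 1 (TAP1), the same gene as in PER-117. The B2M peak, of fold 6.4, fell just under the lowest fold kept in the shortened list, 6.43.

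H3K27ac was called at a gene end for 6 members in KARPAS-45 against 7 in PER-117, beside 61.0% and 55.5% of all protein-coding genes. The 6 were called in both lines, beside 51.9% of all genes, none in KARPAS-45 only, beside 9.18%, and HLA-F in neither. With −log10 q of 2 or more, 3 members were left in KARPAS-45 (HLA-C, B2M and NLRC5) against 7 in PER-117, the regions lost in KARPAS-45 having a −log10 q of 0.851 at HLA-E, 1.95 at TAP2 and the lower end of TAP1, and 1.997 at the TAP1 start, just under the limit.

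**Figure D4:**
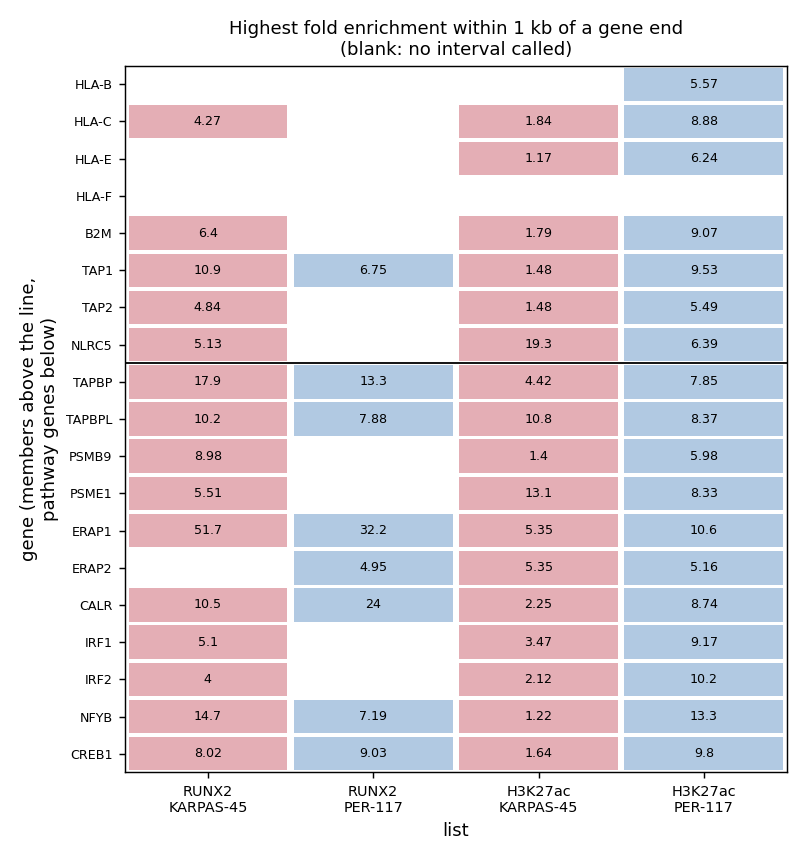
Highest fold enrichment (the authors' ratio, printed in each cell) within 1 kb of a gene end, with genes in rows and the 4 lists in columns. Members are above the line, and the pathway genes picked by fold or by line are below it. A blank cell means that no interval was called. Of the members, RUNX2 is present at 5 in KARPAS-45 and at TAP1 in PER-117, while H3K27ac is present at 6 in KARPAS-45, against 7 in PER-117.

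The rest of the pathway was followed in a list of 23 genes of peptide production, peptide loading and class I regulation. RUNX2 lay at a gene end of 22 in KARPAS-45 against 18 in PER-117, with 17 in both lines, and H3K27ac at 23 of 23 in each. The shares over all protein-coding genes are those given for the members. PSMB8 and PSMB9 of this list lie in the TAP1 and TAP2 windows, so their RUNX2 calls come from peaks already counted there. With the 5000 strongest RUNX2 peaks of each line, 6 genes were called in KARPAS-45 against 4 in PER-117. Of these, ERAP1 and TAPBP were called with both lists, CALR and CREB1 with the PER-117 list only, and PSMB8 was among those of KARPAS-45 only. Those 5000 peaks reached down to a fold of 15.7 for KARPAS-45 but to 8.75 for PER-117. Equal folds thus stand at different places in the lists, so a higher fold of one line below is not by itself a stronger peak. In the peptide-trimming group, the aminopeptidase gene ERAP1 had a fold of 51.7 in KARPAS-45 against 32.2 in PER-117, and ERAP2, which lies inside the span that RefSeq gives for ERAP1, was called in PER-117 only, with 4.95. In the peptide-loading group, tapasin (TAPBP) had 17.9 in KARPAS-45, against 13.3 in PER-117, and its relative TAPBPL had 10.2 in KARPAS-45, against 7.88 in PER-117. The chaperone gene CALR had a fold of 10.5 in KARPAS-45 and of 24.0 in PER-117.

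Among the regulators, NFYB, a subunit of the factor that binds the Y box, had a fold of 14.7 in KARPAS-45 against 7.19 in PER-117, and CREB1, of the family that binds the X2 box, had 8.02 in KARPAS-45, against 9.03 in PER-117. Genes called in KARPAS-45 only included the interferon regulators IRF1, with 5.1, and IRF2, with 4.0, the immunoproteasome subunit PSMB9, with 8.98 from the peak it shares with TAP1, and the proteasome activator PSME1, with 5.51. RUNX2 peaks at gene ends in both lines were thus found in the trimming, loading and regulator groups. The peptide-production group had them too, as at PSMB8, with 23.9 in KARPAS-45 against 6.75 in PER-117.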

How the data were processed

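RUNX2 and H3K27ac were measured by ChIP-seq in 2 T-ALL lines, each antibody having 1 library in each line. Formaldehyde at 1.1% fixed the cells for 10 min, sonication gave fragments of 200 to 300 bp, and 10 μg of antibody was used, per the labels' protocols. Per the submitters' processing notes, the tools include STAR 2.4.2a and MACS2 and the build is hg38; which input and which thresholds lie behind a list is not given in the sources used here. The 3 input libraries were not analysed here. PER-117 has a separate input labelled for H3K27ac and KARPAS-45 has none, so the control may also differ between the lines. The authors deposited, for each peak, a display score, a fold enrichment (a linear ratio), a −log10 p and a −log10 q, with 1 list for each ChIP library. Read depth is unknown. No reads were counted and no peaks were called here.

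Lines with identical coordinates and several summits were merged into 1 interval with the highest fold; lines on other sequences were dropped (127 of 46275 RUNX2 lines in KARPAS-45 and 40 of 23043 in PER-117). Column 10 of the H3K27ac lists is 100 on every line, so they give no summit. Gene spans were RefSeq's (GRCh38.p14), with no exon table, so exon and intron were not resolved. A shared or acetylated peak needs 1 bp of overlap or the summit inside a region. Python 3.11.15, numpy 2.4.6, pandas 2.3.3 and Biopython 1.88 were used, and the interval functions were tested on simulated data. With 1 library per group no test was run. The 8 members, the pathway list and the markers were chosen with earlier results of these data known. Named pathway genes were up to 6 called in both lines, by the lower of their folds, and up to 4 per line called there only, in alphabetical order; the gene nearest the strongest peak of each window was also named. Some genes of the lists are counted but not reported here by name.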

Additional observations from a re-analysis of the deposited data

How the results depend on the processing

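The excess of RUNX2 peaks in KARPAS-45 did not hold against list length. With the 5000 strongest peaks of each line, KARPAS-45 had 4 peaks in the windows and PER-117 had 6 (difference -2), 0 members in either line had RUNX2 at a gene end, 3 peaks of each line were shared, 2 summits in KARPAS-45 and 3 in PER-117 were acetylated, and 6 pathway genes were called in KARPAS-45, against 4 in PER-117. With the KARPAS-45 list shortened to the PER-117 length, a setting chosen after seeing the data, KARPAS-45 had 10 peaks (difference -1), 1 member at a gene end, 5 shared peaks and 6 acetylated summits. A B2M peak and an HLA-E peak of KARPAS-45 lay just under the cut of this setting. With −log10 q of 10 or more, KARPAS-45 had 14 peaks and PER-117 had 7, 3 members were called in KARPAS-45, 5 peaks of each line were shared, 10 summits were acetylated in KARPAS-45 against 4 in PER-117, and 11 pathway genes were called in PER-117. The larger H3K27ac cover of KARPAS-45 did not hold either. With −log10 q of 2 or more KARPAS-45 had 46.8 kb (difference -14.6 kb), 3 members at a gene end and 10 acetylated summits, and PER-117 had 29 regions. With the widest KARPAS-45 regions kept up to the PER-117 covered length it had 32.7 kb (difference -34.8 kb), 4 regions, 3 members (B2M, TAP1 and TAP2) and 6 acetylated summits. Narrow KARPAS-45 regions were dropped there whatever their fold. Windows of 10 kb gave 12 RUNX2 peaks in KARPAS-45 against 6 in PER-117. Windows of 100 kb gave KARPAS-45 48 RUNX2 peaks, 75 H3K27ac regions and 164 kb, and PER-117 21 peaks, 78 regions and 119 kb. Gene ends of 2.5 kb gave 2 members with RUNX2 in PER-117, and the annotated start alone gave 0 in PER-117, among the 6 members with a start. The cause of these shifts was not tested beyond the list length or limit that each setting changes. Of 110 values recomputed, 57 stayed within 1.5 times the reported value in the same direction, 49 moved further and 4 reversed. Only differences between the lines could reverse. Some PER-117 values could not move, because 2 settings shortened the KARPAS-45 list alone. The tally is therefore no measure of how stable the results are. No paired analysis was possible because each line has 1 library per antibody and no test was run. With 1 library per line and antibody, unknown read depth and no input analysed, a missing peak says only that none was listed.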
